A study of Mus musculus with 22 samples.

Results

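The genes described are those of apolipoproteins and chylomicron assembly: Apoa1, Apoa4, Apob, Apoc2, Apoc3, Mttp, Mogat2, Dgat1 and Dgat2. They were chosen by name, and each was read from the probe set of highest mean over the 22 arrays among the probe sets annotated to it and to no other gene. All 9 were measured, out of 18193 genes in all. RNA was taken from the terminal ileum, the last stretch of the small intestine, of NOD mice, which are prone to autoimmune diabetes, so the controls carried that background too. Mice were controls (3 females, 5 males), were given STAT, a sub-therapeutic antibiotic treatment (3 females, 3 males), or were given PAT, antibiotic in therapeutic pulses (3 females, 5 males). The sources used here do not name the drug, its dose or the age at sampling. Each sample was hybridised to 1 Affymetrix array. Nothing in the labels says that samples came from separate animals, so p-values rest on sample spread alone, part of which may be technical.

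Enterocytes, the absorptive cells of the villus, take up fatty acids and monoacylglycerol from digested fat and rebuild triglyceride in the endoplasmic reticulum. Mogat2 makes diacylglycerol from monoacylglycerol, and Dgat1 and Dgat2 add the last acyl chain. Mttp, the microsomal triglyceride transfer protein, loads lipid onto apolipoprotein B, which then leaves the cell as a chylomicron that also carries the products of Apoa1, Apoa4, Apoc2 and Apoc3. In the small intestine fat absorption lies mainly in the proximal part, and the ileum is best known for taking up bile acids.

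In mice given PAT, Apoa4 rose 3.31-fold in the ileum as an average of both sexes. It was the only one of the 9 genes called there, at an adjusted p under 0.05, where 11% of all genes were called. In males given PAT, Apob was called too, 1.42-fold higher, where 9.02% of all genes were called. That Apob call was lost without control male 3 or PAT male 5, and in females the log2 difference was -0.07 ± 0.17. No gene was called after STAT, although all 9 were lower on average in STAT males than in control males, and STAT males 2 and 3 held most of the low values.

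Apoa1, Apoc3 and Apoa4 lie next to each other on chromosome 9, with Apoa5 beyond Apoa4, and Dgat2 and Mogat2 are neighbours on chromosome 7. Promoter sequences for 5 of the 9 genes were matched in RefSeq for build GRCm38.p6, each from 250 bases before to 50 bases after the start site. Those of Apoa4 and Apoa1 are shown because the genes sit in the same cluster and of the pair only Apoa4 was called after PAT, and that of Apoc2 because it was called with Apoa4 between PAT and STAT. They are chr9:46240594-46240893 and chr9:46228380-46228679 on the plus strand and chr7:19677892-19678191 on the minus strand, 5' to 3'. Capitals mark CAAAGT, the core letters of the HNF4 motif, and AGGTCA, a nuclear receptor half-site.
Apoa4: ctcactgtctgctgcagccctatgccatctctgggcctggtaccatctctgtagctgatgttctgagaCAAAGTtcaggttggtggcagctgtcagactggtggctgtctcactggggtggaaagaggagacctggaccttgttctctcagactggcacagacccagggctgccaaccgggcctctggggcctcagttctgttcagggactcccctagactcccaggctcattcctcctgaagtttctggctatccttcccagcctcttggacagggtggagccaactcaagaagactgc
Apoa1: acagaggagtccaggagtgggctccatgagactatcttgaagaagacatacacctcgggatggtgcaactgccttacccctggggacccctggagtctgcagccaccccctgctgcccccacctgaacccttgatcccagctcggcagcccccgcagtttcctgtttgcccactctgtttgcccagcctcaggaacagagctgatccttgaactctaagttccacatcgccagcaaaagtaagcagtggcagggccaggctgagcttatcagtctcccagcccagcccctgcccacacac
Apoc2: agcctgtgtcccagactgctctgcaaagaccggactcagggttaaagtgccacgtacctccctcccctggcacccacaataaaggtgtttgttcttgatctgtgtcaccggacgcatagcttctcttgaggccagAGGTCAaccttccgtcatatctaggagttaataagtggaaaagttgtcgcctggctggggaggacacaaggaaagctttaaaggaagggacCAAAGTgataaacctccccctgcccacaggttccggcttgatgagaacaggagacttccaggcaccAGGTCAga
Both strands were searched. CAAAGT began at position -182 from the start site of Apoa4 and at -24 from that of Apoc2, and 14.4% of the 32851 promoters in the table hold it. AGGTCA was found at 2 places in the Apoc2 window and is held by 16.3% of promoters. Neither was found in the Apoa1 window, which says only that these letters are not in it. The other motifs searched were ACGTCA, a partial cAMP response element, and TATAAA, the letters of the TATA box. ACGTCA began at -29 in Mttp (7.51% of promoters hold it) and TATAAA at -60 in Apob (13.6%). Whether either is a working element there was not tested. No motif overlapped another.

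The samples carried the markers of their labelled tissue. Fabp6, the ileal bile acid binding protein, had a log2 level of 13.93 to 14.62 on the 22 arrays, and Slc10a2, the ileal bile acid transporter, 9.61 to 11.98. Some arrays stood apart. PAT female 1 had a log2 level of 10.37 for Lct, the lactase of the proximal small intestine, where the other 21 arrays had 4.18 to 4.81, and 9.16 for the B cell gene Ms4a1, where the others had 4.31 to 5.56. The mean of the 8 proximal markers was 8.07 on it and at most 6.85 elsewhere, and that of 5 B cell markers was 6.42 and at most 4.97. Among the proximal markers, Adh6a was 10.46 on PAT female 1 and 5.81 to 7.77 on the others. Gata4, Onecut2, Cybrd1 and Cyp2b10, also proximal markers, reached at most 6.06, 3.85, 6.7 and 7.47 on any array. Slc40a1 and Rbp2, the rest of that list, were higher, at 8.81 to 12.02 and 7.27 to 11.06 over the 22 arrays. STAT males 2 and 3 had the widest gap between the 3' and 5' ends of the beta-actin control, 0.59 and 0.60, where the other 20 arrays had 0.28 to 0.42. The same gap for the Gapdh control was -0.26 to -0.20 in control males and -0.23 to -0.08 in PAT males. In females it was -0.20 to -0.09 in controls and -0.11 to -0.03 after PAT. The 10 enterocyte markers of STAT males 2 and 3 averaged 10.89 and 11.05, below the 11.46 to 11.72 of the control males. Because the samples are bulk tissue, fewer cells of a type and less RNA per cell cannot be told apart.

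Apoa4 encodes apolipoprotein A-IV, a protein made in the gut and carried on chylomicrons, also studied as a satiety signal. Its log2 level was 11.03, 11.08 and 10.79 in control females, 10.77, 11.82 and 10.51 in STAT females and 13.26, 12.71 and 12.99 in PAT females. In males it was 11.17, 10.64, 10.85, 11.60 and 11.80 in controls, 11.89, 8.41 and 10.60 after STAT and 12.71, 12.35, 12.71, 12.09 and 13.34 after PAT. The lowest of the 8 PAT arrays was above the highest of the 8 control and 6 STAT arrays, as the plot of levels by group shows. Of all genes, 0.544% had no overlap of this kind between PAT and control, and in males alone 1.75% had none. The order of the group means was STAT males (10.30 ± 1.76, SD, n = 3), control females (10.96 ± 0.16, n = 3), STAT females (11.03 ± 0.69, n = 3), control males (11.21 ± 0.49, n = 5), PAT males (12.64 ± 0.47, n = 5) and PAT females (12.99 ± 0.28, n = 3). Neighbours in that order overlapped except at the step from control males to PAT males.

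**Figure D1:**
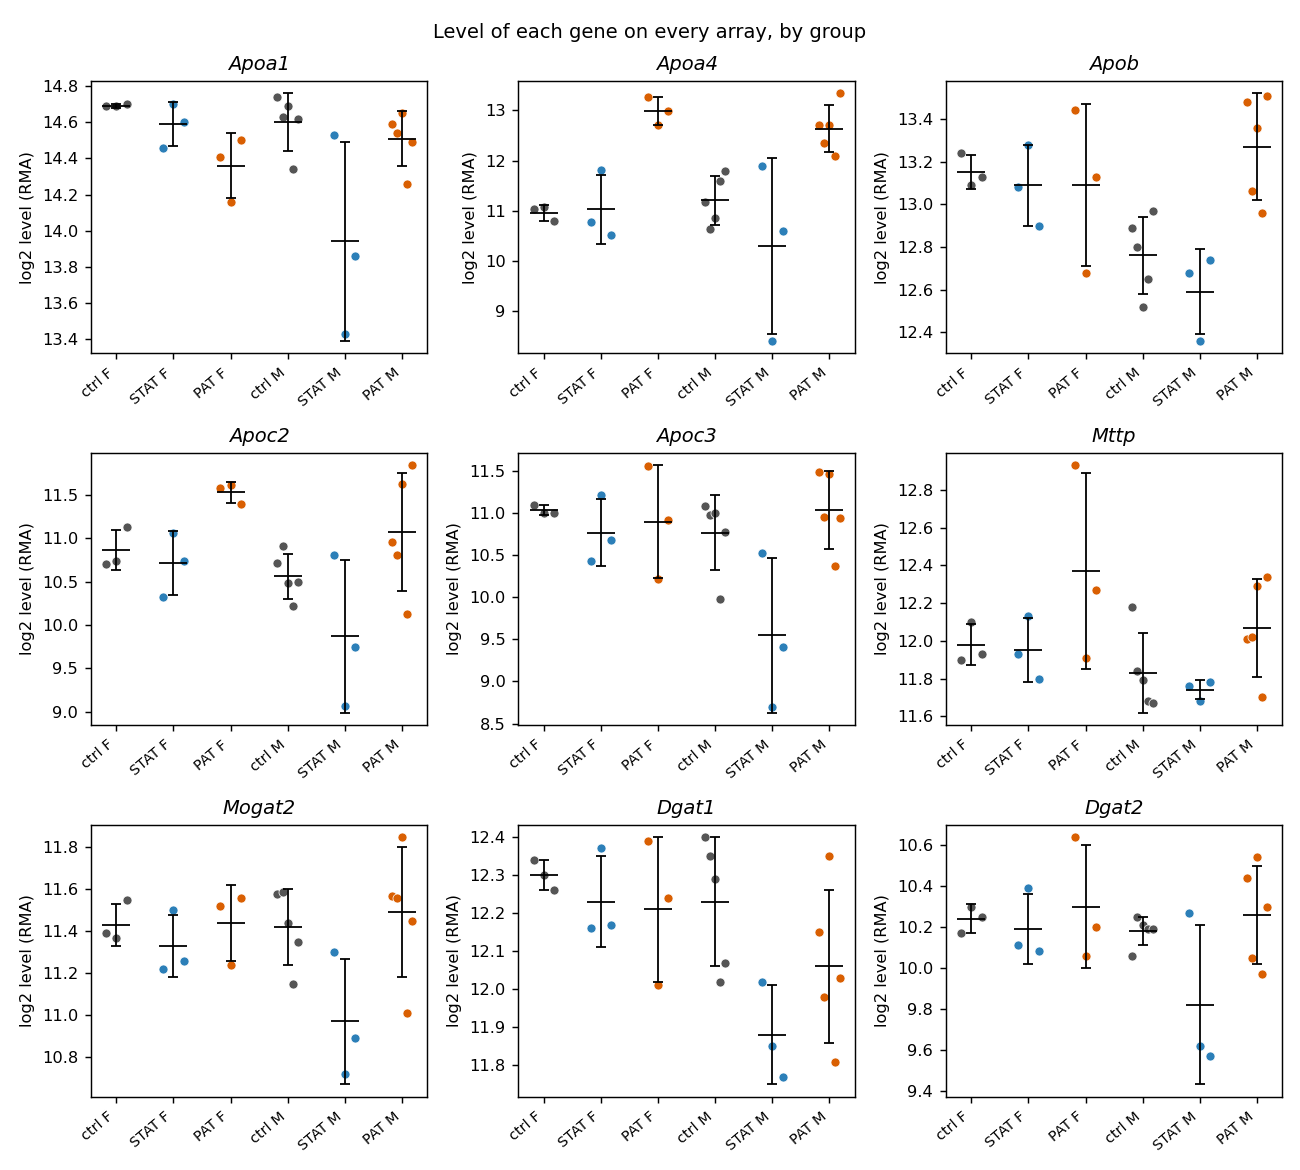
Log2 level on the y axis of each of the 9 genes (panels) on the 22 arrays, by group on the x axis. Points are arrays and black lines are group means ± SD (n = 3 or 5), and the y range differs between panels. The 8 PAT arrays for Apoa4 lie between 12.09 and 13.34, above the 8 controls at 10.64 to 11.80.

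Averaged over the sexes, the difference between PAT and control in Apoa4 was 1.73 ± 0.34 (SE) on the log2 scale, with an adjusted p of 0.00274 in limma. Across the whole table this comparison called 11% of all genes, and 4.61% of all genes were called higher, against 1 of the 9 genes here. Apoa4 was also the 1 member called in females, where 3.35% of all genes were called and 2.27% as higher. The difference was 2.03 ± 0.54 in females (adjusted p = 0.0445 in limma, n = 3 and 3) and 1.43 ± 0.42 in males (adjusted p = 0.0378, n = 5 and 5). The female and male differences were not shown to differ (0.60 ± 0.69, adjusted p = 0.65 in limma), and none of the 9 genes was called in that test, which called 0.0055% of all genes. Without PAT female 1 the average was 1.66 (adjusted p = 0.0089), and leaving out any other array in turn kept the call, at 1.64 to 1.80. Within a sex the call was less stable: in females it was lost with any 1 of the 6 arrays left out (adjusted p from 0.0669 to 0.146), and in males in 7 of 10 runs (up to 0.103), those without control males 1, 2 or 3 or PAT males 1, 2, 3 or 5.

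The other Apoa4 probe set differed by 2.04 ± 0.39 between PAT and control over both sexes (adjusted p = 0.00251 in limma). In males the chosen probe set gave 1.58 among samples with the lower title numbers (4 PAT, 3 control) and 1.64 among the higher ones, which start at that of PAT male 5 (1 PAT, 2 control).

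Apoa4 was then set against other genes on the same array. Relative to Apoa1, its difference between PAT and control was 1.94, relative to Apoc3 it was 1.66, and relative to the mean of the other 8 genes it was 1.61. Relative to the mean of the 10 enterocyte markers it was 1.76. Without PAT female 1 these were 1.89, 1.75, 1.61 and 1.77. Apoa1 lies near the top of the scale, where a change can be understated, which limits the value relative to it and its p. The exact permutation test within sex, two-sided over the 5040 arrangements of 8 PAT and 8 control arrays, gave p = 0.0004 for each of these but Apoc3 (p = 0.0024), and 0.0004 is the smallest it can give. Adjusted over the 5 values tested, Apoa4 itself included, these were 0.0005 and 0.0024. All 8 PAT arrays lay above all controls of their sex in each but the Apoc3 comparison, where 5 did. For Apoa4 alone, with nothing subtracted, all 8 already did, at p = 0.0004 in the same permutation test. Apoa4 was picked with its limma call on these arrays known, and the adjustment over 5 values does not cover that choice. These p-values are therefore not separate evidence from that call.

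Marker lists of intestinal cells were read beside this difference. For the marker calls over both sexes named here and below, the whole table had 4.61% of genes called higher and 6.38% lower. The 10 enterocyte markers averaged 11.65 ± 0.33 in PAT females and 11.68 ± 0.02 in control females (SD, n = 3 each), and 11.59 ± 0.22 in PAT males and 11.61 ± 0.11 in control males (n = 5 each). The female mean holds the high Lct of PAT female 1, and without that array it was 11.47 ± 0.20 (n = 2). Without Lct, the other 9 markers averaged 12.23 in PAT females, at 12.06 to 12.44, and 12.49 in control females, at 12.46 to 12.54, so that the PAT females lay lower. In males the 9 averaged 12.39 and 12.42. Relative to those 9 markers the Apoa4 difference was 1.87 over both sexes, and 1.79 without PAT female 1. Of the 10 markers, Mep1a fell over both sexes and none rose.

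The mean of 8 ileal enterocyte markers was 12.05 ± 0.22 in PAT females and 11.90 ± 0.07 in control females, and 12.05 ± 0.31 in PAT males and 11.64 ± 0.23 in control males. Fgf15, an ileal hormone induced by bile acids, rose by 2.16 ± 0.52 over both sexes and Fabp6 by 0.21 ± 0.07, and the other 6 were not called. Without Fgf15 the mean was 12.42 in PAT females and 12.56 in control females, and 12.55 and 12.39 in males.

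Of 6 villus tip markers, Klf4 (0.59) and Cdkn1a (0.50) rose over both sexes and Nt5e fell (-0.85). The mean of the 6 was 10.20 ± 0.34 in PAT females, 10.38 without PAT female 1, and 10.70 ± 0.09 in control females, and it was 10.81 ± 0.53 in PAT males and 10.79 ± 0.15 in control males. Of 8 crypt markers Ascl2 fell (-0.58), and the mean of the 8 was 10.11 in PAT females and 9.84 in control females, and 9.53 in PAT males and 9.80 in control males. Of 5 Paneth cell markers, Mmp7 (-0.54) and Pla2g2a (-0.82) fell in males, where 6.68% of all genes were called lower. The list mean in males was 12.04 ± 0.21 after PAT and 12.49 ± 0.25 in controls. In females it was 12.39 after PAT and 12.27 in controls. The part of cell makeup in the Apoa4 difference was not tested. The list means without 1 gene or array were added after seeing the data.

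Apob encodes the structural protein of the chylomicron. Its log2 level was 12.89, 12.80, 12.52, 12.65 and 12.97 in control males and 13.48, 13.06, 13.36, 12.96 and 13.51 in PAT males, so that 4 of the 5 PAT males lay above all control males. The difference in males was 0.51 ± 0.13 (adjusted p = 0.0215 in limma), and Apob and Apoa4 were the 2 of 9 genes called there, where the whole table had 2.34% of genes called higher 6.68% lower and 9.02% called in all. The call was lost without control male 3 or PAT male 5 (adjusted p up to 0.0644). Control females were at 13.24, 13.09 and 13.13 and PAT females at 13.44, 12.68 and 13.13, which overlap, with a difference of -0.07 ± 0.17 (adjusted p = 0.866). The female minus male difference of the PAT effect was -0.58 ± 0.22 and did not pass (adjusted p = 0.183 in limma). Between control females and males it was 0.39 ± 0.16 (adjusted p = 0.304 in limma), and none of the 9 genes was called there, with 0.055% of all genes. The second Apob probe set, which is much dimmer, gave 0.73 ± 0.23 in males (adjusted p = 0.0547 in limma).

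Apoc2 encodes the activator that lipoprotein lipase needs to clear triglyceride from chylomicrons. It was 10.70, 10.74 and 11.13 in control females and 11.58, 11.61 and 11.39 in PAT females, without overlap. With 3 arrays against 3, 14.7% of all genes were this way higher in PAT. Males overlapped, at 10.22 to 10.91 in controls and 10.13 to 11.84 after PAT. Over both sexes the difference was 0.59 ± 0.23 and did not pass (adjusted p = 0.11 in limma), with a 95% interval from 0.11 to 1.07.

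Apoc3, whose product slows triglyceride clearance, and Apoa1, the main protein of high density lipoprotein, did not pass in this comparison. Apoc3 was 11.04 ± 0.06 in control females and 10.90 ± 0.67 in PAT females (SD, n = 3 each), and 10.77 ± 0.45 in control males and 11.04 ± 0.46 in PAT males (n = 5 each). Its difference over both sexes was 0.07, with a 95% interval from -0.44 to 0.58. Apoa1 was 14.69, 14.69 and 14.70 in control females and 14.41, 14.16 and 14.50 in PAT females, so that all PAT females lay below all control females, as did 13.2% of all genes. Over both sexes its difference was -0.22 ± 0.11 (adjusted p = 0.251 in limma), and its 4 probe sets gave -0.22 to -0.26. Apoa1 lay near the top of the scale, where the highest value on any array was 15.04, and a difference there can be understated.

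The transfer and acyltransferase genes did not pass the test between PAT and control. Mttp was 11.90, 12.10 and 11.93 in control females and 12.93, 11.91 and 12.27 in PAT females. In males it was 12.18, 11.84, 11.79, 11.68 and 11.67 in controls and 12.01, 12.02, 12.29, 11.70 and 12.34 after PAT. The highest of the 22 arrays for Mttp was PAT female 1, the array with high Lct and Adh6a, and whether what raised those genes bears on the value was not tested. The Mttp difference over both sexes was 0.32 ± 0.12 (adjusted p = 0.103 in limma), and 0.18 (adjusted p = 0.359) without that array. It passed, at 0.43 (adjusted p = 0.0233), without PAT female 2.

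Mogat2 had a difference of 0.03, Dgat1 of -0.13 and Dgat2 of 0.07 between PAT and control over both sexes. Their 95% intervals were -0.19 to 0.26, -0.30 to 0.04 and -0.16 to 0.30, so each interval lay within 0.5 of 0. Levels of the 3 genes overlapped between PAT and control arrays in each sex.

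**Figure D2:**
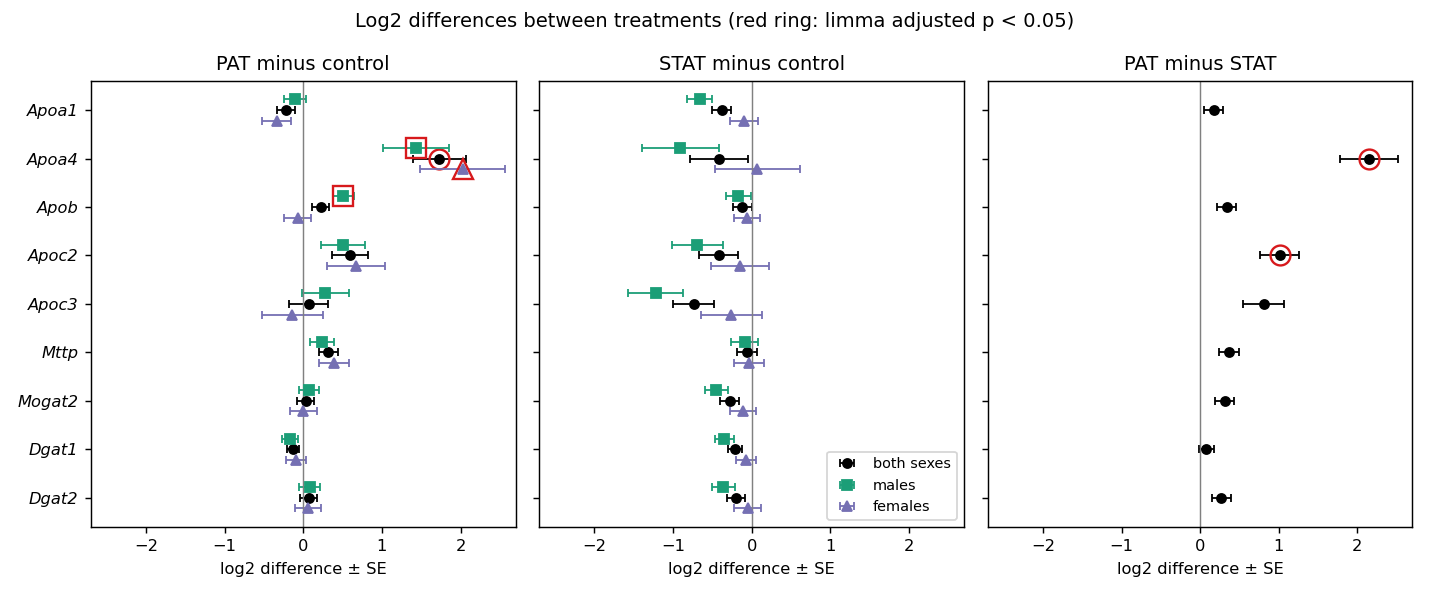
Log2 difference ± SE (x axis) of the 9 genes (y axis) for PAT minus control, STAT minus control and PAT minus STAT, in both sexes, males and females (PAT minus STAT over both sexes). A red ring marks an adjusted p under 0.05 in limma, and Apoa4 is ringed in all 3 PAT minus control estimates and in PAT minus STAT.

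After STAT none of the 9 genes was called in either sex or over both, and neither was any of the 18193 genes (0%). At an unadjusted p under 0.05 in limma, 6 of the 9 genes were lower in STAT males, where 15.7% of all genes passed in either direction, and none passed in STAT females (3.31% of genes). Over both sexes 4 of the 9 passed unadjusted, with 13.1% of genes. The median difference of the 9 was -0.45 in males, with a median of -0.01 over all genes, and -0.07 in females, with 0.01 over all genes. The sexes were not shown to differ in the STAT effect for any of the 9 (adjusted p from 0.991 to 0.993 in limma, with 0% of genes called). Unadjusted, 1 of the 9, Apoa1, passed, with 3.44% of genes.

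The lowest values in STAT males were on 2 arrays. Apoc3 was 10.53, 8.70 and 9.41 in STAT males 1, 2 and 3 and 9.98 to 11.09 in control males. Apoa1 was 14.53, 13.43 and 13.86, against 14.34 to 14.74 in control males. Apoc2 was 10.81, 9.06 and 9.74, against 10.22 to 10.91. STAT male 1 lay within the range of the control males in Apoa1, Apoc2 and Apoc3, whereas STAT males 2 and 3 lay below it. For Apoa4, STAT male 1 at 11.89 was above all control males and STAT male 2 at 8.41 was the lowest of the 22 arrays.

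The acyltransferases followed the same arrays. Mogat2 was 11.30, 10.72 and 10.89 in STAT males and 11.15 to 11.59 in control males. Dgat2 was 10.27, 9.62 and 9.57, against 10.06 to 10.25. Dgat1 was 12.02, 11.85 and 11.77, against 12.02 to 12.40, and was the only one of the 9 with all STAT males below all control males, as were 3.64% of all genes, although STAT male 1 and the lowest control male both round to 12.02. The STAT males had Apob at 12.68, 12.36 and 12.74 and Mttp at 11.76, 11.68 and 11.78. STAT male 2 was the lowest of the 22 arrays in 6 of the 9 genes, and it and STAT male 3 were the lowest pair in 5.

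**Figure D3:**
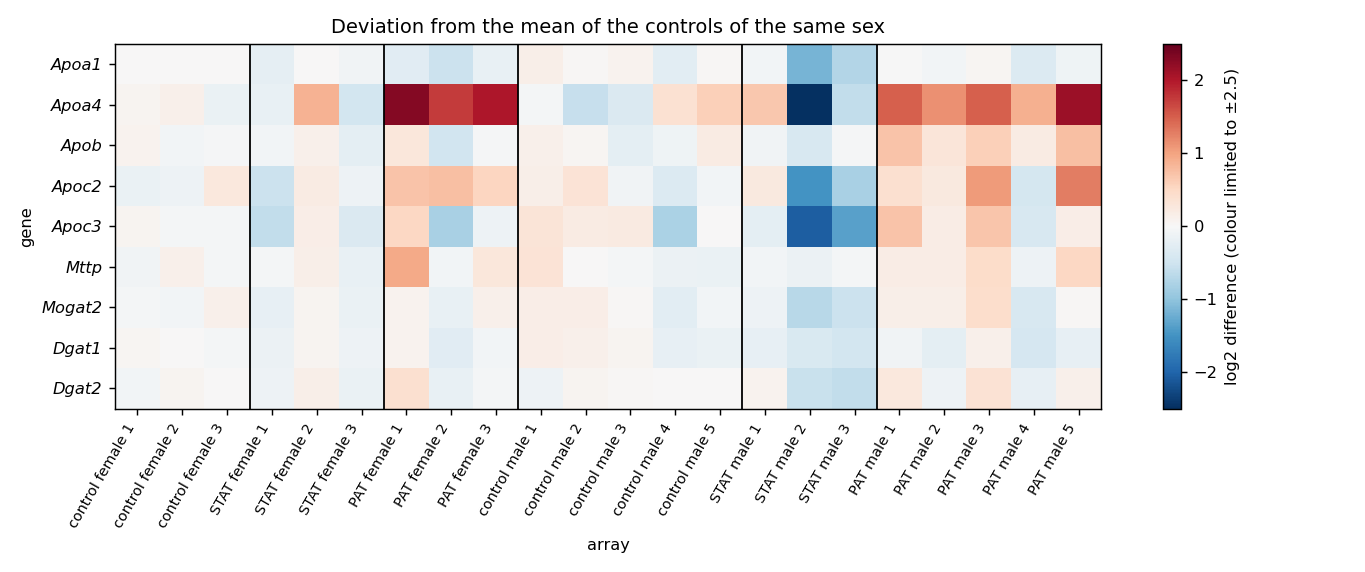
Log2 level of each of the 9 genes (rows) on each of the 22 arrays (columns, black lines between groups) minus the mean of the controls of the same sex. Blue is lower and red is higher. Apoa4 is raised in every PAT array, and STAT males 2 and 3 are low in most rows, with Apoa4 at 8.41 and Apoc3 at 8.70 in STAT male 2.

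In STAT males the differences were -1.22 ± 0.35 for Apoc3 (adjusted p = 0.123 in limma), -0.91 ± 0.49 for Apoa4 (0.384), -0.69 ± 0.33 for Apoc2 (0.309) and -0.66 ± 0.16 for Apoa1 (0.108). Mogat2, Dgat2 and Dgat1 had -0.45, -0.36 and -0.35. Without STAT male 1, 7 of the 9 were called lower in males, all but Apob and Mttp, with Apoc3 at -1.71 (adjusted p = 0.00377 in limma), while 10.8% of all genes were called. Without STAT males 2 and 3, Apoc3 was -0.23, Apoa1 -0.08 and Apoa4 0.68, and none was called, with 0.0495% of all genes called and the 1 remaining STAT male assumed to vary like the other groups. Values of other cell markers moved with these arrays: the enterocyte list was 11.55, 10.89 and 11.05 in STAT males 1, 2 and 3, the villus tip list 10.98, 9.41 and 9.74, and the list of crypt and dividing cell genes 9.66, 10.26 and 10.37. Control males had 10.61 to 10.95 for the villus tip list and 9.71 to 9.90 for the crypt list. The part of cell makeup and of RNA integrity in the lower values was not tested.

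STAT males 2 and 3 also had the higher title numbers. Among those, Apoa4 was 9.51 in the 2 STAT males and 11.70 in the 2 control males, a difference of -2.19. Among the lower numbers it was 11.89 in the 1 STAT male and 10.89 in the 3 control males, a difference of 1.0. The labels do not say what the numbers stand for.

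Between PAT and STAT, over both sexes, Apoa4 was 2.15 ± 0.37 higher after PAT (4.43-fold, adjusted p = 0.00118 in limma) and Apoc2 1.01 ± 0.25 higher (2.01-fold, adjusted p = 0.0168). These were 2 of the 9 genes, where the whole table had 2.89% of genes called higher, 2.98% lower and 5.88% in all. At an unadjusted p under 0.05, 7 of the 9 passed, with 20.7% of genes. All 9 differences were above 0, with Apoc3 at 0.81 ± 0.26 (adjusted p = 0.0696), Mttp at 0.37 ± 0.13 (0.0927) and Apob at 0.34 ± 0.12 (0.0915). Without STAT males 2 and 3, Apoa4 was 1.35 (adjusted p = 0.0112) and Apoc2 was 0.54 and not called (0.291). Leaving out PAT female 1 as well, an alternative chosen after seeing the data, gave 1.29 (adjusted p = 0.0194) and 0.53 (0.374). The Apoc2 call was also lost without STAT female 1 (adjusted p = 0.0575) or STAT male 2 alone (0.0642). The other Mttp probe set passed in this comparison (0.53 ± 0.12, adjusted p = 0.0112), while the chosen one did not. PAT is shared by this comparison and that with the controls, so the values are not independent.

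The other genes of lipid absorption were read from 7 lists holding 76 genes, of which 70 were measured. Over both sexes 9 of the 70 rose after PAT and 1 fell, where the whole table had 4.61% of genes higher and 6.38% lower. The median difference of the 70 was 0.01, and that over all genes was -0.01. Without PAT female 1 there were 6 higher and 2 lower, and 7.88% of all genes were called, a count also added after seeing the data.

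The genes that trap fatty acids inside the cell held the called genes with the largest differences. Fabp1, the liver-type fatty acid binding protein that carries fatty acids through the enterocyte, rose by 1.62 ± 0.29 (3.08-fold, adjusted p = 0.00112 in limma). Its level was 10.80 to 11.67 in control females and 12.95 to 13.40 in PAT females, and 9.51 to 11.36 in control males and 10.86 to 12.58 in PAT males, so that females did not overlap and males did. In females 14.7% of all genes were higher after PAT without overlap. Acsl3 and Acsl5, which activate fatty acids by joining them to coenzyme A, rose by 1.12 ± 0.18 and 0.37 ± 0.10. Without PAT female 1, Fabp1 and Acsl3 were still called over both sexes and Acsl5 was not. Fabp2, the intestinal fatty acid binding protein (0.06), and Cd36, a fatty acid receptor (0.43 ± 0.33, adjusted p = 0.484), were not called, nor were the other 4 measured genes of this list.

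Among 12 measured genes of prechylomicron assembly and export, 2 rose: P4hb, the small subunit of the transfer protein complex, by 0.19 ± 0.06, and Sec24d, a coat protein of the vesicles that leave the endoplasmic reticulum, by 0.35 ± 0.08. The P4hb call was not made without PAT female 1. Sar1b, the GTPase of chylomicron transport, had 0.08 and was not called. None of 9 measured genes of the glycerol phosphate route was called, none of 8 lipid droplet genes and none of 9 other apolipoprotein genes. In the lipid droplet list Cidec, a droplet fusion protein, had the largest difference, 1.19 ± 0.42 (adjusted p = 0.0732). Apoa5, the next gene of the chromosome 9 cluster, was at a log2 level of 5.18 to 6.03 and had a difference of -0.03.

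Of 7 measured genes of triglyceride clearance, 2 rose: Gpihbp1, which anchors lipoprotein lipase on capillaries, by 0.55 ± 0.13, and Angptl8, a regulator of that lipase, by 0.34 ± 0.10. For this list and the next, the whole table had 4.61% of genes higher and 6.38% lower. Angptl8 was dim, at a log2 level of 4.54 to 5.62, below the array medians of 5.68 to 5.79. Without PAT female 1 the Angptl8 call was not made. Of 16 measured transcriptional regulators, Creb3l3, a membrane-bound transcription factor of lipid metabolism known to act on apolipoprotein genes, rose by 0.82 ± 0.20 (adjusted p = 0.0114 in limma), and Srebf2, a regulator of cholesterol synthesis, by 0.25 ± 0.08 (0.0493). Nr5a2, a nuclear receptor of bile acid and crypt biology, fell by 0.52 (adjusted p = 0.00278). Creb3l3 was 10.55 to 10.79 in control females and 10.97 to 11.89 in PAT females. It was 10.64 ± 0.14 in control males and 11.49 ± 0.28 in PAT males (SD, n = 5 each), and PAT arrays lay above the controls in each sex. Of all genes, 14.7% lay this way in females and 1.75% in males. Hnf4a, the factor whose motif was looked for above, had a difference of 0.00 ± 0.06.

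**Figure D4:**
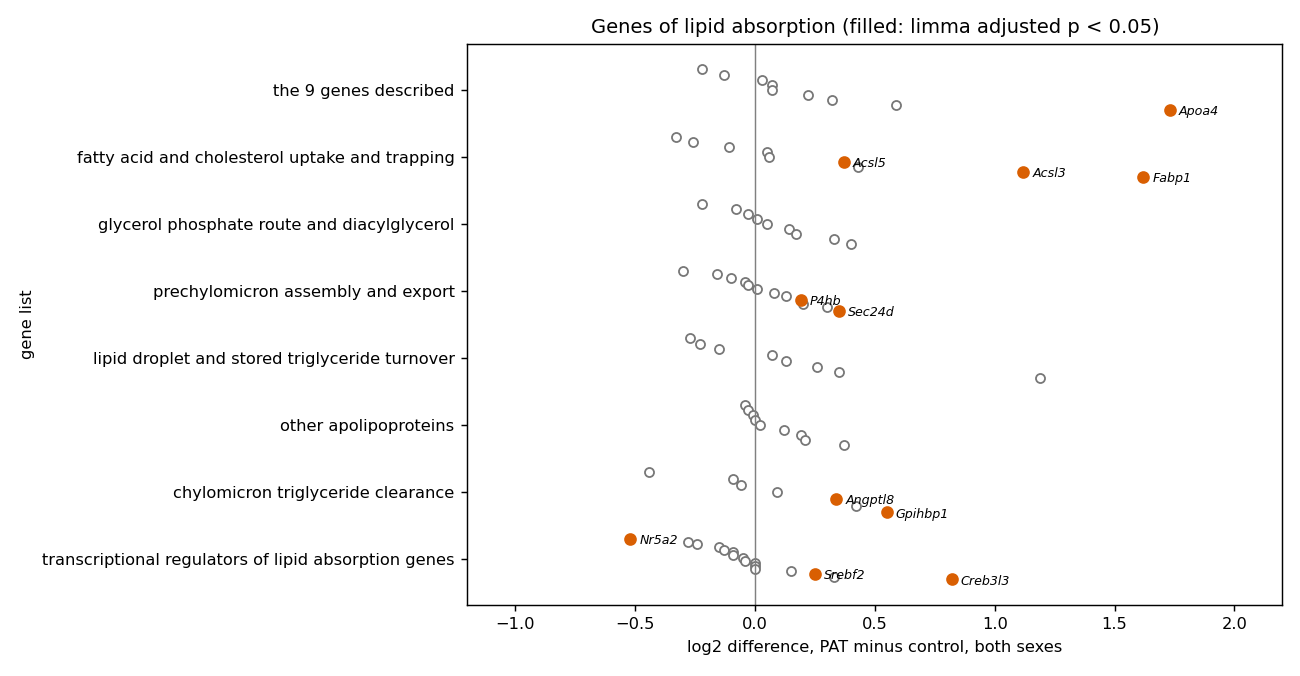
Log2 difference between PAT and control over both sexes (x axis) for the 9 genes and for 70 measured genes of 7 lists (rows). Filled points passed an adjusted p under 0.05 in limma and are named, and points within a row are spread vertically in order of value for legibility. Apoa4 at 1.73, Fabp1 at 1.62 and Acsl3 at 1.12 are the called genes furthest to the right.

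In males 6 of the 70 rose after PAT and 2 fell: Fabp1, Acsl3, Angptl8, Creb3l3, Ppargc1a and Srebf2 rose, and Lmf1, a maturation factor of lipases, and Nr5a2 fell. Of all genes, 2.34% were higher there and 6.68% lower. In females Fabp1 was the 1 gene called, by 1.79 ± 0.45 (adjusted p = 0.0355 in limma), where 3.35% of all genes were called. None of the 70 was called without PAT female 1, where the share over all genes fell to 0.731%. After STAT none of the 70 was called in limma in either sex, with 20 at an unadjusted p under 0.05 in males, where 15.7% of all genes passed, and 1 in females, where 3.31% did. Between PAT and STAT, 8 were higher after PAT and 1 lower, where 2.89% of all genes were higher and 2.98% lower. Without STAT males 2 and 3 that count was 2 and 1, with Acsl5, Creb3l3 and Nr5a2 called and 2.76% of all genes called in either direction.

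The 9 genes varied together within groups. After each group's mean was subtracted, all 36 pairs had a Pearson r above 0 over the 22 arrays, from 0.22 to 0.90 with a median of 0.64. Without the 3 STAT males the range was 0.16 to 0.90 and the median 0.60. The neighbours Apoa1 and Apoc3 had r = 0.90 and Spearman's rho = 0.89 (permutation within groups with 100000 draws, adjusted p over 36 pairs = 0.00058 and 0.00099). Without the 2 arrays farthest from the median in Apoa1, r was 0.90. Apoa4, the third neighbour, had r = 0.71 with Apoa1 but rho = 0.26 (adjusted p = 0.11 and 0.37), and r = 0.15 without the same 2 arrays, so that this relation rests on those. With Apob, Apoa4 had r = 0.59 and rho = 0.71 (adjusted p = 0.0045 and 0.005), and r = 0.69 without the 2 arrays farthest from the median in Apoa4. The arrays of a group share treatment, tissue and normalization, and enterocyte share was not held constant. Pairs among other genes were not measured this way, so the shared variation is not shown to be particular to these 9.

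**Figure D5:**
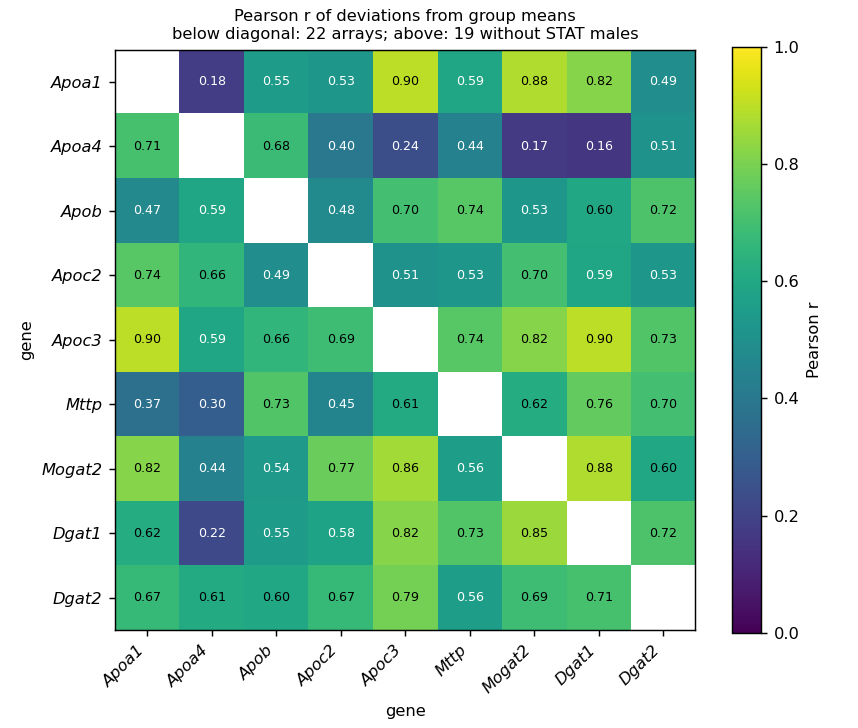
Pearson r between the 9 genes (both axes) after subtraction of group means. Values below the diagonal are over 22 arrays and values above it are over 19 arrays without the STAT males. Apoa1 and Apoc3 have 0.90 in both, while Apoa1 and Apoa4 have 0.71 below and 0.18 above the diagonal.

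The genes most like each member in this within-group variation were drawn from 11442 other genes with a mean log2 level of at least 6, over 22 arrays and as a description. For Apoa4 these were Kdm4b (r = 0.88, rho = 0.89), Cisd1 (0.83 and 0.57) and Gpt (0.81 and 0.60). Without the STAT males Kdm4b kept r = 0.86, while Cisd1 and Gpt had 0.56 and 0.54. For Apoc3 they were Guca2b (0.95), Cyp4b1 (0.94) and Pdzk1 (0.93), and for Apoa1 Cyp3a13 (0.94), Pdzk1 (0.93) and Slco2a1 (0.93). For Mogat2 they were Pepd, Pklr and Cyp4f14 (0.95 each), for Dgat1 Zfyve1 (0.93), Khk (0.92) and Cyp4v3 (0.91), and for Dgat2 Tnip1 (0.92), Slc5a1 (0.89) and Tmem41a (0.89). For Mttp they were Leap2 (0.91), Tmem86a (0.89) and Slc7a8 (0.86), for Apob Tmem144 (0.80), Slc26a3 (0.79) and 1810055G02Rik (0.79), and for Apoc2 Gskip, Slc35f6 and Nags (0.90 each).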

How the data were processed

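Per the submitters' processing notes, the authors summarised the arrays with RMA (affy), and the deposited table holds 1 log2 value for each of 45101 probe sets. RMA equalises array distributions, so shifts shared by most genes are removed; column medians were 5.68 to 5.79. Versions were not stated. RNA was extracted with TRIzol and a column kit, per the labels' protocols.

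Of the probe sets, 34945 had 1 gene symbol in the platform annotation and were used; those with several or none were not. The probe set of highest mean stood for each of 18193 genes. limma 3.58.1 (R 4.3.3) was fitted with 1 mean per group over all 22 arrays (16 residual and 4.88 prior degrees of freedom). P-values were adjusted by Benjamini-Hochberg over all genes, and those under 0.05 counted as calls. Contrasts over both sexes averaged those within each sex. The number of arrays limits the precision. On simulated data of 18193 genes, the PAT against control fit in males recovered 64% of changes of 0.5 log2 units and 96% of changes of 1, and that in females 32% and 88%. The simulated noise was independent between genes, alike in all groups and without outlying arrays, so these rates may not hold for the real arrays. No 2 arrays held identical values.

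The genes, lists and tests were chosen with earlier results of these data known. Named are the 9 genes, up to 4 called genes of smallest p per list, and the 3 genes most like each of the 9; Fabp2, Cd36, Sar1b, Cidec, Apoa5 and Hnf4a were picked after their values were seen.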

Additional observations from a re-analysis of the deposited data

Results flagged for a closer look

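In 18 sets of 5 arrays, the 9 genes in control males and in PAT males, 1 held a sample far from the others: Apoc3 in control male 4 was at a log2 level of 9.98, where the nearest of the other control males was at 10.78, and the gap was 0.717 of the range. Chance gives about 1 in 20 such groups.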

How the results depend on the processing

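Across both sexes the PAT call of Apoa4 was kept under every alternative run, with differences from 1.59 to 2.28, the highest with the Gapdh end difference as a covariate. No called value changed sign. Over all comparisons, 1908 of 1971 gene values kept their side of the threshold, 41 newly passed it and 22 no longer did, and in 89 a gene that was not called changed sign.

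The number of the 9 genes called moved as follows. With the groups compared alone it was 2 for PAT females and 1 for PAT against STAT. With array weights it was 1 for PAT males (Apob, with Apoa4 at an adjusted p of 0.0742), 2 for PAT over both sexes, 7 for STAT males, 5 for STAT over both sexes and 5 for PAT against STAT. With the beta-actin end difference as a covariate it was 2 for PAT over both sexes and 1 for PAT against STAT. Without STAT males 2 and 3 it was 1 for PAT against STAT, and likewise without those and PAT female 1, which was chosen after seeing the data. Leaving out 1 array at a time gave 0 to 2 for PAT males, 0 for PAT females, 1 to 2 for PAT over both sexes, 0 to 7 for STAT males, 0 to 2 for STAT over both sexes and 1 to 6 for PAT against STAT. Calls over all genes moved too, as given next, so these counts are not shown to be particular to the 9 genes. The causes were not tested.

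Over all genes, PAT females gave 123 to 751 calls with 1 array left out (610 in full), PAT males 833 to 2089 (1641), and STAT males 4069 with array weights and 1973 without STAT male 1 (0). STAT over both sexes gave 2288 with array weights and up to 1053 with 1 array left out (0). PAT over both sexes (1999) gave 1433 without PAT female 1, and PAT against STAT gave 971 without it. PAT against STAT (1069) gave 516 with the groups compared alone, 2631 with array weights, 503 without STAT males 2 and 3 and 453 without all 3. No paired analysis was possible because the labels give the samples no shared replicate numbers. Groups of 3 limit what can be called, and levels near background or near the top of the scale compress differences.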
